A study of Mus musculus with 48 samples.

Results

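This account compares what 2 agents given to pregnant mice did to the RNA of the embryonic limb bud mesoderm 12 h later. The comparison is the difference of effects: the change after cadmium sulfate against its own vehicle, minus the change after acetazolamide against its own vehicle, so a positive value means a higher response to cadmium. It used 12 of the 48 arrays of the study, namely mesoderm taken at 12 h from the 4 groups PBS, cadmium, oil and acetazolamide, with 3 arrays in each. Dams had been injected intraperitoneally on gestation day 9.5 with 4 mg/kg cadmium sulfate in phosphate buffered saline (PBS) or with 400 mg/kg acetazolamide suspended in vegetable oil, and the vehicle groups received PBS or oil. Right forelimb buds were dissected, ectoderm was parted from mesoderm with trypsin, and tissue from more than one litter went into each RNA sample. The labels call these RNA extracts non-pooled and do not say whether samples of a group came from separate sets of litters, so the p-values measure the spread between these samples, which may be technical. The mouse strain is not given in the sources used here. The 2 agents were given at different doses, in different vehicles and shared no control arrays, so agent, dose and vehicle cannot be told apart in the difference.

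Both agents are classical teratogens of the mouse forelimb. Acetazolamide inhibits carbonic anhydrases, the enzymes that interconvert carbon dioxide and bicarbonate and so set intracellular pH. Cadmium is a toxic metal that binds thiol groups. In most cells it displaces zinc, activates the transcription factor Mtf1 and induces the metallothioneins Mt1 and Mt2, small cysteine-rich proteins that bind zinc, copper and cadmium. Damage to DNA or to ribosomes, and many other stresses, stabilise the transcription factor p53, whose targets arrest the cell cycle or start cell death. The limb bud mesoderm is the mesenchyme from which the skeleton of the limb forms, and it also carries the vessels and the migrating muscle precursors.

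The arrays were Affymetrix MG-U74Av2 arrays, and the deposited values were each array's signal divided by the signal of vehicle arrays of the same tissue, time and vehicle. The values are therefore ratios, given below as log2 ratios to vehicle, where 1 unit is a doubling. They carry no level, so tissue markers could not be used to check that the samples were mesoderm, and no probe set could be called dim. Vehicle array 3 of each vehicle is 0 by construction, and vehicle arrays 1 and 2 mirror each other. The effects of the agents were estimated for 8252 genes with limma from all 48 arrays, and a gene was called at a Benjamini-Hochberg adjusted p under 0.05 over all 8252 genes. In bulk tissue, fewer cells of a type and less RNA per cell cannot be told apart.

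In the 12 h mesoderm, 1 of 8252 genes, Mt2, differed between the responses to cadmium and acetazolamide, which is 0.0121% of the genes tested. At an unadjusted p under 0.05 the difference was found for 325 genes (3.94%), 153 with the higher and 172 with the lower response to cadmium. Without single arrays this count ran from 198 (oil array 1) to 689 (acetazolamide array 1), with 650 without acetazolamide array 2 and 559 without cadmium array 1. After Mt2, the smallest adjusted p in limma was 0.148. The precision was limited: the 95% interval of the difference reached a median of 0.37 to either side in log2. That interval is not adjusted for the number of genes, so a call needed a larger difference for a typical gene. Zmat3 at 0.94 ± 0.20 (SE) and Ccng1 at 1.88 ± 0.46, both described below, were not called. The responses taken singly were unequal in number. Cadmium changed 188 genes (2.28%), of which 87 rose and 101 fell, and acetazolamide changed 0 genes by limma at the same threshold, with 65 (0.788%) at an unadjusted p under 0.05 (801 without acetazolamide array 1 and 196 without acetazolamide array 2). The interval was wider for acetazolamide, with a median reach of 0.30 against 0.21 for cadmium. A fit without the terms for shared denominators called 146 differences, and a limma fit of the 12 arrays alone, also without weights, called 0, with 374 at an unadjusted p under 0.05. Mt2 was called without each of the 12 arrays in turn; the count of differences rose to 10 without acetazolamide array 2, 3 without acetazolamide array 1, 4 without the first cadmium array and 2 without the second. Cadmium array 1, when left out, raised the number of genes changed by cadmium to 361, whereas omitting cadmium array 2 lowered it to 99 and omitting array 3 of cadmium or of PBS lowered it to 58.

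**Figure D1:**
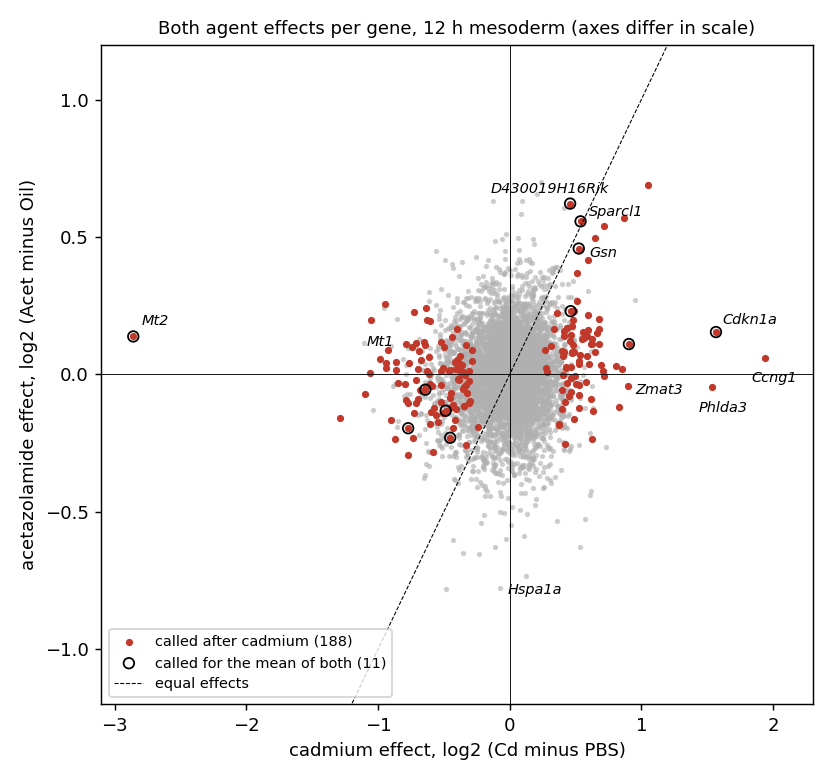
Each point is a gene, with its cadmium effect on the horizontal axis and its acetazolamide effect on the vertical axis, both as log2 ratios to vehicle in 12 h mesoderm, on axes of different scale. Mt2 at -2.86 and Ccng1 at 1.94 on the horizontal axis lie near 0 on the vertical axis, while Gsn (0.53 and 0.46) lies nearer the diagonal.

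RNA of the metallothioneins Mt1 and Mt2 was lower after cadmium, and neither was called after acetazolamide. Mt2 stood at -3.27, -2.96 and -2.52 in the cadmium arrays, against -0.60, 0.42 and 0.00 in the PBS arrays. After acetazolamide it stood at 0.04, 0.32 and -0.05, against -0.44, 0.34 and 0.00 after oil. All 3 cadmium arrays lay below every PBS array, and the acetazolamide and oil arrays overlapped. The cadmium effect on Mt2 was -2.86, a 7.25-fold lower ratio (limma adjusted p = 6.71e-10), and the acetazolamide effect was 0.14 (95% interval -0.46 to 0.74). The difference between the agents was -3.00 ± 0.36 (SE, 95% interval -3.74 to -2.26), with an adjusted p of 4.21e-05 in limma. Across the alternatives run it ranged from -3.26 to -2.66, and its limma call was lost only in the fit that used the 12 arrays alone and no weights, with an adjusted p of 0.131. The direction is opposite to the induction of Mt2 that cadmium is known for in other settings.

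Mt2 lies on chromosome 8 from 94172618 to 94173567 in GRCm38.p6, next to Mt1 from 94178883 to 94180327. The bases before the Mt2 start are shown because this is the gene that separates the agents. They are from RefSeq, on the plus strand at chr8:94172368-94172617, 5′ to 3′. Capitals mark matches to the metal response element core, searched as TGCACNC or TGCGCNC on both strands.
Mt2: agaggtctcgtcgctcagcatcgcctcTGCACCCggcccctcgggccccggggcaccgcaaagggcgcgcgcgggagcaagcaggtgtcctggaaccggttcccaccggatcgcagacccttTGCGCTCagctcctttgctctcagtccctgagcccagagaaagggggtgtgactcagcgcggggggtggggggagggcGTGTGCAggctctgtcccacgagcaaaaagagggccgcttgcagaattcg
Counted from the start, the 3 matches lie at -223 to -217, at -128 to -122 and, on the minus strand, at -50 to -44. One or more matches were found in 21.4% of 32851 promoter windows of the same 250 bases, and 3 or more in 1.26%. The window of Mt1, searched in the same way, held 1 match, from -23 to -17. It was counted from a start in the promoter table that lies inside the annotated gene. A match is a stretch of letters and not a measured binding site.

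Mt1, the neighbour of Mt2, also fell after cadmium. Its cadmium arrays read -0.93, -0.94 and -0.45, all below the PBS arrays at -0.24, 0.20 and 0.00, and the effect was -0.76 (limma adjusted p = 0.00205). The acetazolamide arrays read -0.26, 0.39 and 0.00, and overlapped the oil arrays. The difference between the agents for Mt1 was -0.81 ± 0.24 (SE), which did not pass (limma adjusted p = 0.724). Mtf1, the metal-sensing transcription factor, had a difference of -0.03 ± 0.16 (SE). Slc30a1, the zinc exporter that Mtf1 also controls, had -0.13 ± 0.11, and Slc39a7, a zinc transporter of the secretory pathway, had 0.42 ± 0.28. Of 22 listed genes of metallothionein and metal transport, 17 were measured, and their median difference was -0.033 against 0.001 over all genes. Mt1 and Mt2 were the 2 members called after cadmium. Mt3, the metallothionein known from brain, had a cadmium effect of 0.02 (limma adjusted p = 0.982) and a difference of 0.05 ± 0.19 (SE). In the list, 0 members had an acetazolamide effect at an unadjusted p under 0.05.

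**Figure D2:**
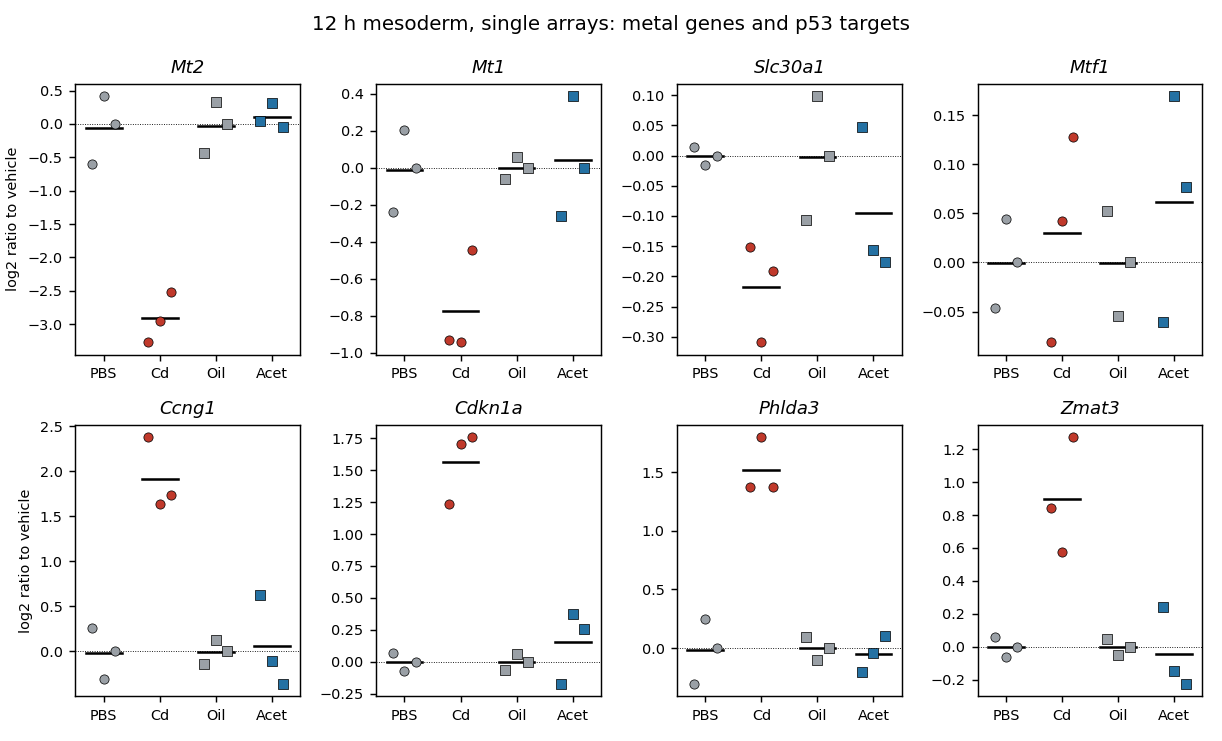
Each panel gives the log2 ratio to vehicle of single arrays of 12 h mesoderm for one gene, with 3 points per group (PBS, cadmium, oil, acetazolamide) and a bar at the group mean. The cadmium arrays of Mt2 lie at or below -2.52, and those of Ccng1 at or above 1.64, while the acetazolamide arrays surround 0.

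Several p53 targets also had values apart between the agents. Phlda3, Ccng1, Cdkn1a and Zmat3 rose after cadmium, and their acetazolamide effects lay between -0.05 and 0.15. None of the 4 differences passed over all genes, though each 95% interval excluded 0. Ccng1, which encodes cyclin G1 and feeds back on p53, read 2.38, 1.64 and 1.73 after cadmium and 0.26, -0.31 and 0.00 after PBS. Acetazolamide arrays of Ccng1 read 0.63, -0.10 and -0.36, around the oil arrays at -0.14, 0.13 and 0.00. The difference for Ccng1 was 1.88 ± 0.46 (SE, 95% interval 0.94 to 2.81, limma adjusted p = 0.289).

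Cdkn1a encodes p21, the inhibitor of cyclin-dependent kinases through which p53 stops the cell cycle. It read 1.23, 1.71 and 1.76 after cadmium, each above the PBS arrays at 0.07, -0.07 and 0.00. It read -0.17, 0.38 and 0.25 after acetazolamide, overlapping the oil arrays at -0.06, 0.06 and 0.00. The difference was 1.41 ± 0.34 (SE, 95% interval 0.72 to 2.10, limma adjusted p = 0.281). The probe sets of Cdkn1a disagreed in size. One gave a difference of 2.36, which passed when every probe set was tested alone (limma adjusted p = 0.0294), and the other gave 0.46.

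Phlda3, a p53-induced inhibitor of Akt signalling, read 1.38, 1.80 and 1.38 after cadmium against -0.30, 0.25 and 0.00 after PBS. Its acetazolamide arrays read -0.20, -0.05 and 0.11, against 0.10, -0.10 and 0.00 after oil. All cadmium arrays of Phlda3 lay above the other 9 arrays, and the difference was 1.58 ± 0.34 (SE, 95% interval 0.89 to 2.27, limma adjusted p = 0.148). Zmat3, a p53-induced RNA-binding protein, read 0.84, 0.57 and 1.27 after cadmium and 0.24, -0.15 and -0.22 after acetazolamide. Its vehicle arrays stayed within -0.06 to 0.06, and the difference was 0.94 ± 0.20 (SE, limma adjusted p = 0.148). Calls for these 4 differences depended on single arrays. In limma, Zmat3 and Ccng1 passed without acetazolamide array 1 (adjusted p = 0.00894 and 0.0476), Phlda3 and Cdkn1a passed without acetazolamide array 2 (0.0307 for both), and Zmat3 passed without cadmium array 2 (0.04). With the array number as a block, Phlda3 and Ccng1 passed (adjusted p = 0.000158 and 0.0213).

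The bases before the starts of Cdkn1a and Ccng1 are shown because both genes rose after cadmium. The sequences are from RefSeq in GRCm38.p6, 5′ to 3′ in the direction of the gene, at chr17:29090729-29090978 on the plus strand for Cdkn1a and at chr11:40755310-40755536 on the minus strand for Ccng1. Capitals mark matches to the p53 decamer motif, searched on both strands.
Cdkn1a: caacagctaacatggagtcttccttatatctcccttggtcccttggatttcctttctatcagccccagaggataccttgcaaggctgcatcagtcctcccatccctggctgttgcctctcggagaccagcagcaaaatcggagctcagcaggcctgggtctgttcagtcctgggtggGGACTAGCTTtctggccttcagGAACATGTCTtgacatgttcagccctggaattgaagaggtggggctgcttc
Ccng1: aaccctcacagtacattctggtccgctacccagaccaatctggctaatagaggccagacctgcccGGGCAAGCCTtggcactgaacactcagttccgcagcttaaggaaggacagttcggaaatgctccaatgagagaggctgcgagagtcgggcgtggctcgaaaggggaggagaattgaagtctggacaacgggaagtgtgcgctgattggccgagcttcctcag
Positions are counted from the start given in the promoter table; for Ccng1 that start lies inside the annotated gene, and only the bases outside the gene are printed. Cdkn1a had 2 matches, from -73 to -64 and from -51 to -42, and Ccng1 had 1, from -185 to -176. The window before a second start of Cdkn1a, at chr17:29093519-29093768, held 0 matches. Among all 32851 windows, 7.13% held at least 1 match and 0.259% at least 2. The window of Phlda3 held no such letters, which says nothing about the factor there.

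The remaining p53 targets gave a mixed picture. Of 27 listed targets 17 were measured; 4 rose after cadmium and 0 fell (1.05% and 1.22% of all genes did so), and none was called after acetazolamide. For the difference, 5 members were higher and 1 was lower at an unadjusted p under 0.05, where 1.85% and 2.08% of all genes were. The list's median difference was 0.308 against 0.001 for all genes, with 10 of 17 above 0. Besides the 4 genes above, Gtse1, a p53 regulator of the late cell cycle, had a difference of 0.49 ± 0.23 (SE). Sesn1, the stress-inducible sestrin 1, went the other way with -0.52 ± 0.24 (cadmium -0.20, acetazolamide 0.31). Mdm2, the ubiquitin ligase that degrades p53, had -0.10 ± 0.21, and the antiproliferative gene Btg2 had 0.11 ± 0.14. Plk2, a polo-like kinase, had 0.51 ± 0.34, and Perp, a membrane protein of epithelial junctions, had 0.31 ± 0.36. The list had been seen to move with cadmium in these same arrays before the agents were compared. The difference contains those cadmium values. The list's counts and median, for cadmium and for the difference, are therefore a description and not a test.

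Genes outside the lists filled most of the top of the ranking. The 20 genes with the smallest p for the difference were singled out after their values were seen. All 20 were also called after cadmium, as were 2.28% of all genes. The cadmium effect is part of the difference by which they were ranked, so this overlap is a description. Nek7, a kinase of mitosis and of the inflammasome, read -0.84, -0.95 and -1.17 after cadmium and 0.47, -0.17 and -0.14 after acetazolamide, and its difference was -1.04 ± 0.23 (SE). The zinc finger gene Zfp239 had -0.90 ± 0.19, and its cadmium arrays read -0.49, -0.64 and -1.23 against 0.18, -0.02 and 0.16 for acetazolamide. Both had an adjusted p of 0.148 in limma. Other lower responses to cadmium were those of the zinc finger genes Zfp105 (-0.91) and Zscan26 (-1.25), the mitochondrial ribosomal protein gene Mrps2 (-0.98), the complex I assembly gene Ndufaf1 (-0.75), the membrane-scission ATPase Vps4a (-0.67) and the checkpoint gene Hus1 (-0.58). The probe sets of Hus1 ran from -1.31 to -0.10. Higher responses to cadmium were those of Gja4, which encodes an arterial connexin (0.83), Tie1, an endothelial receptor kinase (0.76), Prrg2 (0.66), Sys1 (0.67), Tpgs1 (0.86), Spef1 (0.53) and Dpysl4 (0.80). The 2 probe sets of Spef1 gave 1.03 and 0.03, those of Prrg2 0.44 and 0.89 and those of Tie1 1.03 and 0.50. The adjusted p of these 20 genes apart from Mt2 lay between 0.148 and 0.401 in limma.

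The 188 genes called after cadmium lay near 0 after acetazolamide. Their median cadmium effect was 0.527 in size. Measured along the cadmium direction, the median acetazolamide effect on these genes was 0.0395, with quartiles of -0.0414 and 0.133. The effects had the same sign in 114 of the 188 (60.6%, against 51.9% of all genes). Of the 87 that rose after cadmium, 62 (71.3%) lay above 0 after acetazolamide, and of the 101 that fell, 52 (51.5%) lay below 0. At an unadjusted p under 0.05, 9 of the 188 moved with cadmium after acetazolamide and 0 against it. Of all 8252 genes, 49 did so with cadmium and 16 against it. The acetazolamide effect was the larger in 2 of the 188, against 41.3% of all genes. For the difference, 128 of the 188 had an unadjusted p under 0.05, against 3.94% of all genes. Since the 188 were chosen by their cadmium effects, these shares describe them and do not test the difference.

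No gene passed for acetazolamide, so what was specific to acetazolamide could be described only by values. Without the terms for shared denominators, 6 genes passed for acetazolamide, among them Gsn, D430019H16Rik, Adssl1 and Sparcl1, which are described below as shared with cadmium or nearly so. The 6 genes with the smallest p for the difference among those with the larger acetazolamide effect were Zkscan1, Snrpc, Rnasek, Baiap2l1, Abcd4 and Myf5. Their limma adjusted p for the difference lay between 0.739 and 0.982. Zkscan1, a zinc finger gene, read 0.66, 0.43 and 0.14 after acetazolamide, above the oil arrays at 0.07, -0.07 and 0.00. After cadmium it read 0.03, -0.32 and -0.81, overlapping PBS, and the difference was -0.77 ± 0.25 (SE). Snrpc, a protein of the U1 spliceosomal particle, read -0.24, -0.72 and -0.15 after acetazolamide, all below oil, and its difference was 0.59 ± 0.20. Rnasek had the tightest acetazolamide arrays of the 6 at -0.21, -0.24 and -0.20, with cadmium arrays at 0.11, 0.21 and 0.22, and a difference of 0.39 ± 0.14. That value is the average of 2 probe sets that disagreed, with differences of 0.09 and 0.69. The cytoskeletal adaptor gene Baiap2l1 had -0.35 ± 0.13, the ABC transporter gene Abcd4 had -0.56 ± 0.20, and Myf5, a determination factor of muscle precursors, had -0.44 ± 0.16.

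Carbonic anhydrase RNA, the transcripts of the enzymes acetazolamide inhibits, did not pass for any comparison. Of 25 listed genes of carbonic anhydrases and pH transport, 14 were measured, and the median difference was -0.004 with 7 of 14 above 0. The acetazolamide effects ran from -0.22 for Car2, the abundant cytosolic enzyme, to 0.20 for Car12, a membrane-bound form. Car2 read -0.12, -0.42 and -0.11 after acetazolamide, and its difference of 0.16 ± 0.23 (SE, 95% interval -0.31 to 0.64) left room for a change of either sign. Car3 had the largest difference of the 4 members named here, 0.44 ± 0.24, from cadmium arrays at 0.11, 0.28 and 0.92. Car14, also membrane-bound, had 0.21 ± 0.21.

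A few list members had an acetazolamide effect at an unadjusted p under 0.05, and several rested on 1 array. Hspa1a, the inducible Hsp70, read -2.17 in acetazolamide array 3 and -0.04 and -0.15 in the others. Without array 3 of each group its difference turned from 0.70 to -0.12. Egln1, the oxygen-sensing prolyl hydroxylase, read 0.41, 1.17 and -0.11. Pax1, a transcription factor of the shoulder girdle, read 0.31, 0.70 and -0.09, and the tight-junction gene Cldn5 read -0.22, -0.80 and 0.00. Array 2 held the extreme value for Egln1, Pax1 and Cldn5.

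**Figure D3:**
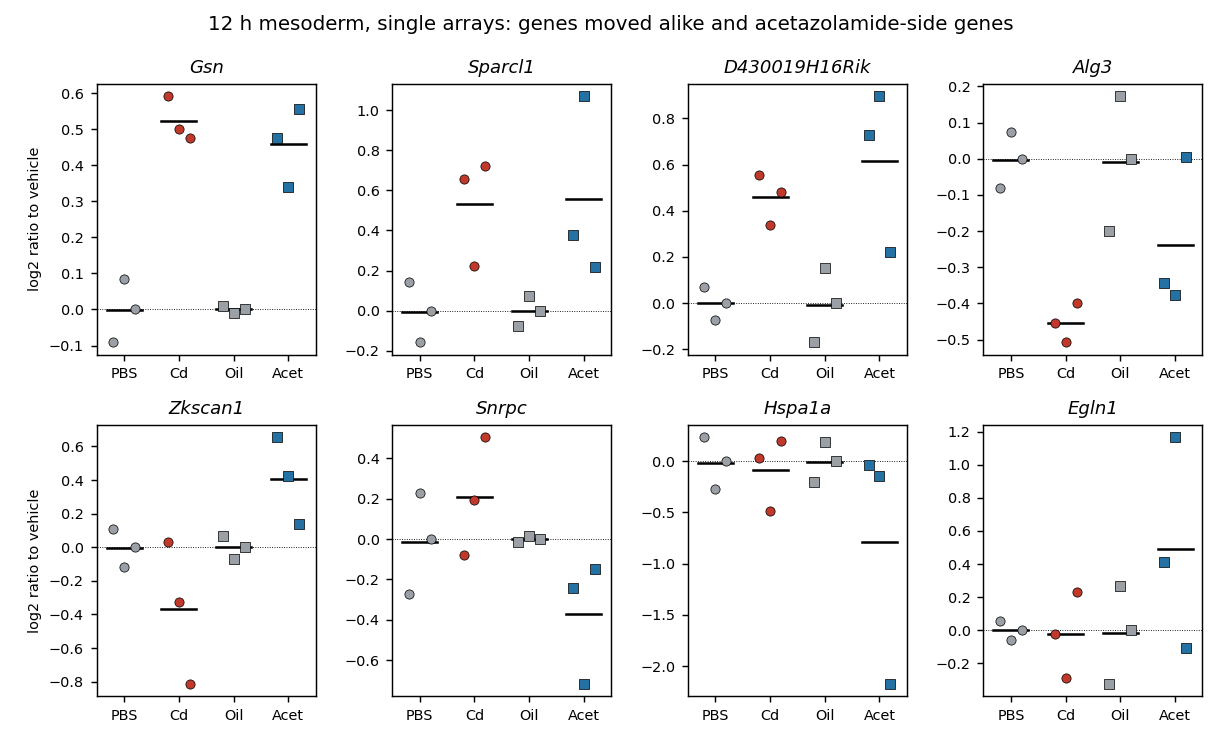
Each panel gives single arrays of 12 h mesoderm for one gene as log2 ratios to vehicle, with 3 points per group and a bar at the group mean. Gsn lies between 0.34 and 0.59 in all 6 treated arrays, and the acetazolamide mean of Hspa1a rests on 1 array at -2.17.

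Responses common to both agents were looked for through the mean of the 2 effects. A large effect of 1 agent can move this mean from 0 by itself, so a call does not show a shared response. The mean called 11 genes (0.133%), 6 higher (0.0727%) and 5 lower (0.0606%). The count rested on single arrays: it was 82 without acetazolamide array 1, 30 without acetazolamide array 2, 18 without the first cadmium array, and 3 to 8 without any other array. Mt2, Gsn and D430019H16Rik were called without each array in turn, and lost the call in the limma fit of the 12 arrays alone without weights (adjusted p = 0.0747, 0.0747 and 0.2). Gsn also lost it from arrays 1 and 2 alone (adjusted p = 0.117). Gsn, which encodes the actin-severing protein gelsolin, was the clearest of them with 0.59, 0.50 and 0.48 after cadmium and 0.48, 0.34 and 0.56 after acetazolamide. All 6 values lay above the vehicle arrays, which ran from -0.09 to 0.09. The mean effect on Gsn was 0.49 ± 0.07 (SE, limma adjusted p = 6.52e-04), and the difference between the agents was 0.07 with a 95% interval of -0.22 to 0.36. Larger differences than that were therefore outside the interval, and smaller ones were not.

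D430019H16Rik and Sparcl1 also had similar fitted effects. D430019H16Rik read 0.55, 0.34 and 0.48 after cadmium and 0.73, 0.90 and 0.22 after acetazolamide, with a mean effect of 0.54 ± 0.08 (SE, limma adjusted p = 0.00132) and a difference of -0.16 ± 0.17. It also had the smallest adjusted p for acetazolamide alone, 0.676. Sparcl1, a secreted matrix protein of the SPARC family, read 0.66, 0.22 and 0.72 after cadmium and 0.38, 1.07 and 0.22 after acetazolamide. Its mean effect was 0.55 ± 0.11 (SE, limma adjusted p = 0.0366) with a difference of -0.02 ± 0.22 (95% interval -0.47 to 0.44), and the call for the mean was lost under 11 of 21 alternatives.

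Alg3, a mannosyltransferase of protein glycosylation, fell with a mean effect of -0.34 (limma adjusted p = 0.0356), from -0.45 after cadmium and -0.23 after acetazolamide. Its acetazolamide arrays at -0.34, -0.38 and 0.01 overlapped the oil arrays at -0.20, 0.17 and 0.00. Pan2, a deadenylase subunit, rose with a mean of 0.35, from 0.46 and 0.23, and its probe sets disagreed (cadmium effects of 0.15 and 0.78). The call for the mean was lost under 11 of 21 alternatives for Alg3 and 14 of 21 for Pan2. The other mean calls leaned on cadmium. Mt2, Cdkn1a, Hus1, Dpysl4, Dusp12 and R3hcc1 had acetazolamide effects of 0.14, 0.15, -0.06, 0.11, -0.20 and -0.13, and the sign for Mt2 was opposite to that of cadmium. Adssl1, the adenylosuccinate synthetase of muscle, came next with an adjusted p of 0.0595 in limma. It read 0.55, 0.88 and 0.67 after acetazolamide and 0.27, 0.08 and 0.37 after cadmium, so all 6 arrays lay above their vehicles. The difference for Adssl1, -0.46 ± 0.21 (SE), lay on the acetazolamide side.

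Among the other pathway lists, the median differences were largest in size for splicing and mitosis. Of 28 measured splicing and RNA-binding genes, 8 were above 0 and the median difference was -0.253, from a cadmium median of -0.229 and an acetazolamide median of -0.057. Rbm25, a splicing regulator, was the member called after cadmium; it read -0.45, -0.92 and -1.83 there and 0.32, -0.20 and -0.11 after acetazolamide, with a difference of -1.07 ± 0.39 (SE). Of 27 measured mitosis genes, 3 were above 0 (50.2% of all genes were) and the median difference was -0.220. In this list the medians of the agents had opposite signs but were small, -0.09 after cadmium and 0.063 after acetazolamide. Above 0 were 7 of 27 after cadmium and 20 of 27 after acetazolamide, where 54.4% and 53.3% of all genes were. Cdk1, the kinase that drives entry into mitosis, read -0.22, -0.13 and -0.34 after cadmium and 0.29, 0.11 and 0.18 after acetazolamide. Its difference of -0.42 ± 0.16 was the only one in the mitosis list with an unadjusted p under 0.05, and no member was called. DNA replication genes had a median of -0.079 over 36 members, with Mcm10 at -0.52 ± 0.24 and Orc1 at -0.45 ± 0.20.

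Glycolysis and heat shock lists had medians on one side after both agents. Of 28 measured genes of hypoxia and glycolysis, 23 were above 0 after cadmium and 22 after acetazolamide, where 54.4% and 53.3% of all genes were. The median of the mean effect was 0.154. Pfkl, the liver form of phosphofructokinase, rose after cadmium (0.60, 0.89 and 1.01) and read -0.27, -0.07 and -0.10 after acetazolamide, with a difference of 0.95 ± 0.31 (SE). Pfkp, the platelet form, was also called after cadmium, but its arrays were scattered at 0.80, 0.24 and 2.09, and at 0.57, 1.81 and -0.31 after acetazolamide. The difference for Pfkp was 0.36 ± 0.48, and it was -0.66 from arrays 1 and 2 alone. Of 18 heat shock and chaperone genes, 6 were above 0 after cadmium and 3 after acetazolamide. Hspd1, the mitochondrial Hsp60, read -0.24, -0.22 and -0.27 after cadmium, where it was called, and -0.20, -0.33 and -0.04 after acetazolamide, with a difference of -0.05 ± 0.11.

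**Figure D4:**
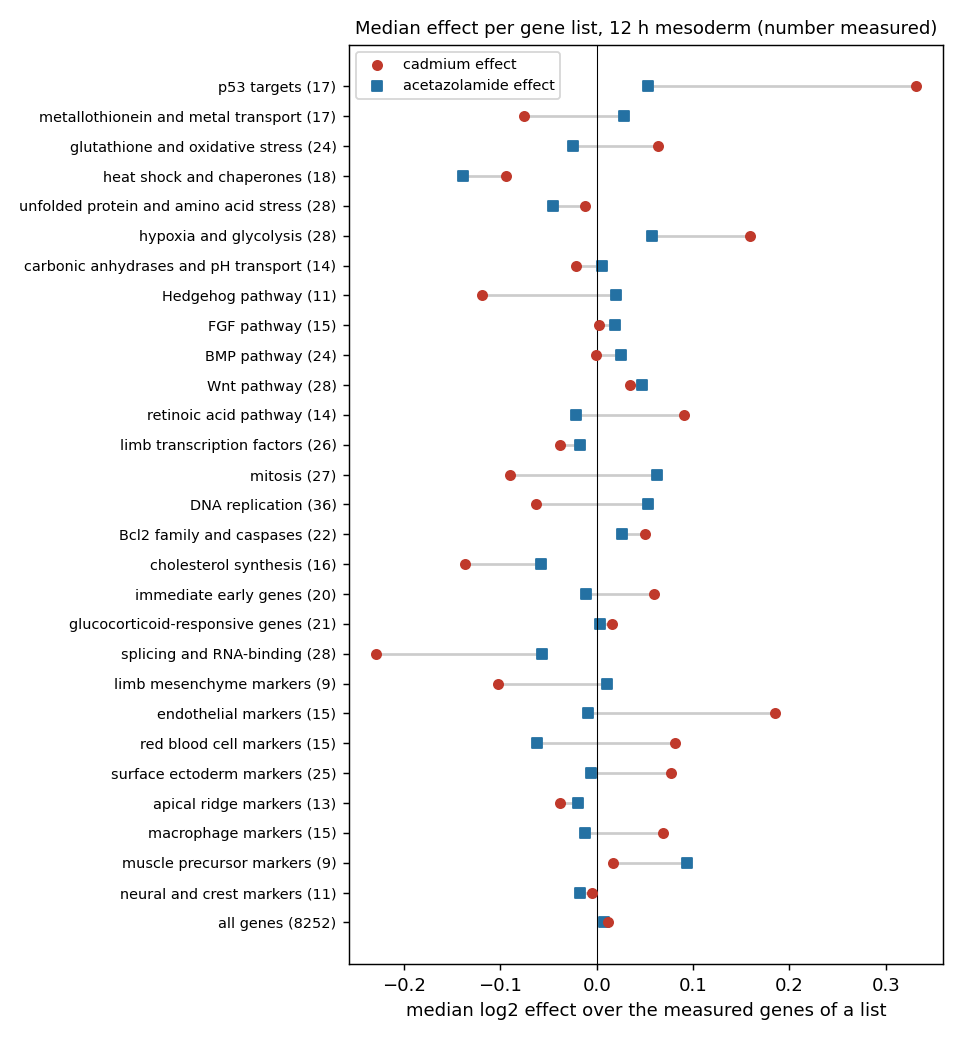
For each gene list, with its number of measured genes, the plot gives the median cadmium effect (circles) and the median acetazolamide effect (squares) in 12 h mesoderm as log2 ratios. The circle and square lie at 0.331 and 0.053 for p53 targets, at 0.185 and -0.009 for endothelial markers, and at -0.229 and -0.057 for splicing genes.

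None of the genes listed for limb patterning was called for the difference. Of 11 measured Hedgehog pathway genes, 4 were above 0 and the median difference was -0.178. Ccnd1, which encodes cyclin D1 and is listed there as a target, fell after cadmium (-0.36, -0.33 and -0.34) and read -0.05, 0.01 and 0.02 after acetazolamide, with a difference of -0.34 ± 0.10 (SE, limma adjusted p = 0.724; -0.14 and -0.53 for its 2 probe sets). The receptor gene Ptch1 had -0.34 and the target Gli1 had -0.28, and neither reached an unadjusted p of 0.05. Shh itself, whose source lies in the posterior mesoderm, had 0.07. The median difference was 0.004 for 24 BMP pathway genes, -0.024 for 15 FGF pathway genes, 0.016 for 28 Wnt pathway genes and 0.076 for 14 retinoic acid pathway genes. Crabp1, which binds retinoic acid in the cytoplasm, had a difference with a 95% interval of 0.16 to 1.84, from 0.59, 0.90 and 0.70 after cadmium and 0.11, -0.96 and -0.17 after acetazolamide. Limb transcription factors had a median of -0.080 over 26 members, with Hoxd9 at 0.55 ± 0.23 and Pax1 at -0.35 ± 0.18. In the Wnt list, Dvl1, a cytoplasmic transducer, rose after cadmium (0.50, 0.48 and 0.48) and had a difference of 0.50 ± 0.23.

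Markers of vessel cells lay mostly on the cadmium side. Of 15 measured endothelial markers, 13 had a difference above 0, where 50.2% of all genes had, and the median was 0.322. Tie1, Eng and Vwf rose after cadmium, as did 1.05% of all genes. The 2 probe sets of Vwf gave cadmium effects of 0.91 and 0.03. The mean log2 ratio of the 15 markers was 0.156, 0.164 and 0.445 in the cadmium arrays and 0.024, -0.135 and 0.011 in the acetazolamide arrays. The vehicle arrays ran from -0.113 to 0.086. Gja4, among the 20 genes above, is likewise an endothelial gene. Red blood cell markers had a median difference of 0.076 over 15 members, with Alas2, the first enzyme of heme synthesis in red cells, at 0.65 ± 0.21 (SE). Limb mesenchyme markers had -0.062 over 9 members, and surface ectoderm markers had 0.115 over 25. Kdr and Pecam1, which define endothelium, had differences of -0.08 and 0.08. Whether the share of vessel cells had a part in the results was not tested.

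Control probe sets that report RNA quality had mean changes of opposite sign after the 2 agents, but their single arrays were scattered. The 3′ to 5′ ratio of the actin control probe sets changed by -0.0724 after cadmium and 0.243 after acetazolamide in log2, and that of Gapdh by -0.254 and 0.417. Acetazolamide array 2 had a Gapdh ratio of 1.72 in log2, while arrays 1 and 3 read -0.195 and -0.0465 (oil: -0.457, 0.686 and 0). After cadmium the Gapdh ratio read -0.709, 0.114 and -0.105 (PBS: -0.312, 0.374 and 0). The actin ratio after cadmium, at 0.0182, -0.0733 and -0.227, overlapped that after PBS, at -0.196, 0.132 and 0. After acetazolamide it read 0.333, 0.392 and 0.0475 (oil: -0.121, 0.164 and 0). With the mean of both ratios as a covariate, Mt2 was again the 1 gene called for the difference.

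The difference between the agents was set against that at 3 h in mesoderm and at 12 h in ectoderm. For Mt2 the difference was -0.36 ± 0.36 (SE) in 3 h mesoderm and -1.64 ± 0.54 in 12 h ectoderm. The change from 3 h to 12 h in mesoderm was -2.63 ± 0.51, with an adjusted p of 0.148 in limma, and mesoderm minus ectoderm at 12 h was -1.35 ± 0.65. Mt2 passed for 12 h minus 3 h without 12 h PBS array 1 or 3 h oil array 2, and, with all arrays, when the array number was a block or RNA quality a covariate. As fitted here, neither contrast called any gene: 0 of 8252 passed for 12 h minus 3 h, with 187 (2.27%) at an unadjusted p under 0.05, and 0 for mesoderm minus ectoderm, with 370 (4.48%).

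Among the p53 targets, Zmat3 had values of opposite sign in the other settings. Its difference was 0.94 in 12 h mesoderm, -0.39 ± 0.20 (SE) in 3 h mesoderm and -0.47 ± 0.30 in 12 h ectoderm. Mesoderm minus ectoderm was 1.41 ± 0.36 for Zmat3, with an adjusted p of 0.874 in limma. Ccng1 had a difference of -0.43 ± 0.46 at 3 h and 1.42 ± 0.68 in ectoderm, Cdkn1a had 0.09 ± 0.34 and 0.76 ± 0.50, and Phlda3 had 0.33 ± 0.34 and 0.48 ± 0.50. Mt1 had 0.02 ± 0.36 in ectoderm, where Mt2 had -1.64. For the splicing and mitosis lists, the median differences in 12 h ectoderm were -0.707 and -0.664, on the same side as in mesoderm, and in 3 h mesoderm they were 0.071 and -0.125. Endothelial markers had 0.343 in 12 h ectoderm and 0.138 in 3 h mesoderm.

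**Figure D5:**
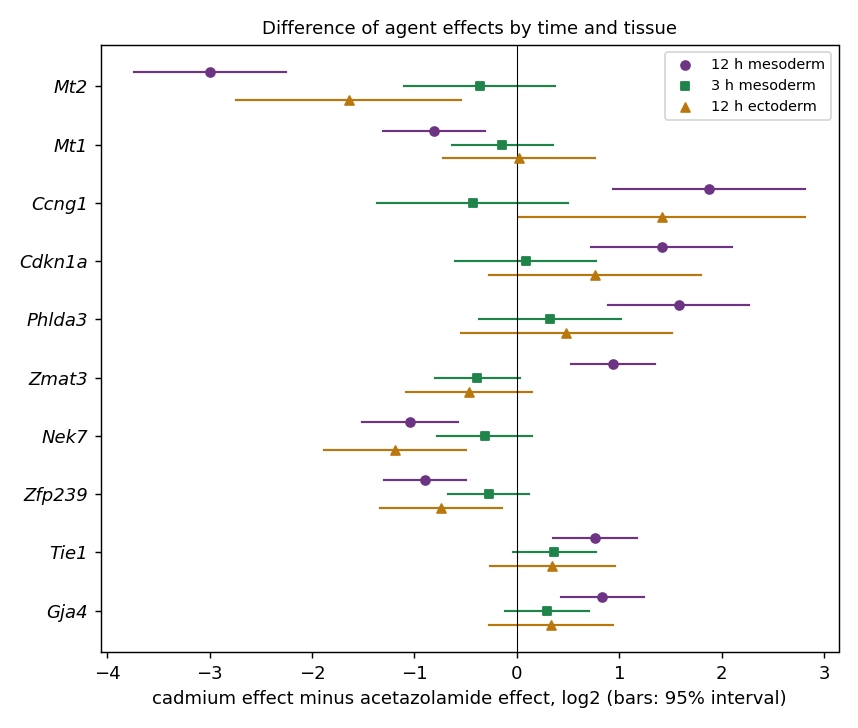
The plot gives the difference of the cadmium and acetazolamide effects (log2) for the named genes in 3 h mesoderm, 12 h mesoderm and 12 h ectoderm, with bars for the 95% interval. For Mt2 it is -0.36, -3.00 and -1.64, and for Zmat3 it is -0.39, 0.94 and -0.47.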

How the data were processed

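The deposited values of the 48 arrays (Affymetrix MG-U74Av2, 12488 probe sets) were linear ratios to vehicle arrays. In the values, vehicle arrays 1 and 2 of a group sum to 2 and vehicle array 3 equals 1; that treated arrays were divided the same way is inferred from their numbers. The division puts an array's own signal in the numerator. The software that made the signals is not given in the sources used here. No levels remain, so dim probe sets could not be filtered.

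Ratios were log2-transformed without a pseudocount. Probe sets paired with 1 gene in GEO's platform annotation (10855; 396 had several genes and 1237 none) were averaged per gene, giving 8252 genes. limma 3.58.1 in R 4.3.3 fitted all 48 arrays with 16 denominator means, 8 agent effects and a precision weight per comparison (24 residual and 3.92 prior degrees of freedom), and was tested on simulated data. The number of arrays limits the precision.

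Genes were named by this rule: the 15 largest called differences each way, called list members, the 6 smallest p for the difference among genes with the larger acetazolamide effect, the 6 smallest p for the mean of both effects, and the metallothionein, p53 and carbonic anhydrase genes. Named beyond it, after their values were seen, were the 20 smallest p for the difference, the other genes called for the mean with the gene next to them, and list members at a threshold. The comparison and the lists were chosen with earlier results of these data known. Alternatives left out weights, denominator terms, single arrays or arrays 3, used only the arrays compared (without weights), or added a replicate block, median centring, single probe sets, a robust prior or an RNA quality covariate.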

Additional observations from a re-analysis of the deposited data

How the results depend on the processing

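The counts of called genes depended on how the spread was modelled. For the difference between the agents (1 gene), 0 were called from only the arrays compared without weights, 146 without denominator terms, 2 with each probe set alone, and 1 to 10 without single arrays. For the cadmium effect (188 genes), 22 were called without weights, 0 from only the arrays compared without weights (limma, 989 at an unadjusted p under 0.05), 1175 without denominator terms, 29 from arrays 1 and 2 alone, and 58 to 361 without single arrays. For the acetazolamide effect (0 genes), 6 were called without denominator terms, and 0 to 0 without single arrays. For the mean of both effects (11 genes), 3 were called without weights, 0 from only the arrays compared without weights (limma, 525 at an unadjusted p under 0.05), 389 without denominator terms, 2 from arrays 1 and 2 alone, and 3 to 82 without single arrays. For 12 h minus 3 h (0 genes), 18 were called without denominator terms, 1 (Mt2) with the RNA quality covariate, and 0 to 1 without single arrays. For mesoderm minus ectoderm (0 genes), 23 were called without denominator terms.

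With a replicate block, 5 differences (Mt2, Phlda3, Tie1, Ccng1 and Nek7), 459 cadmium effects, 34 mean effects and 1 change from 3 h to 12 h (Mt2) were called. The array numbers were not taken as pairs: the deviations of arrays 1 and 2 correlated between cadmium and PBS (r = 0.651 over genes) but hardly between acetazolamide and oil (r = 0.0906). The block changed no call to the acetazolamide effect or to mesoderm minus ectoderm.

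Over 73 named genes and all their alternatives, 1583 values kept direction and side of the threshold, 106 lost and 53 gained a call, and 22 changed sign. This tally joins the differences of the 73 genes with the mean effects of the 11 genes called for the mean. Of the differences only Mt2 was called, so no other could lose a call, and Mt2 lost it under 1 of 21 alternatives. All other losses were calls for the mean. They ran from 1 of 21 for Mt2 and D430019H16Rik to 14 of 21 for Hus1, Dpysl4 and Pan2. Differences that changed sign from arrays 1 and 2 alone were Hspa1a (-0.124), Hspd1 (0.0425) and Pfkp (-0.655), and with the RNA quality covariate Sparcl1 (0.0564). Without single arrays, the difference ran from -0.188 to 0.228 for Sparcl1, -0.0836 to 0.386 for Gsta4, -0.101 to 0.0312 for Mtf1, -0.0317 to 0.325 for Car2, -0.154 to 0.863 for Pfkp, -0.107 to 0.0261 for Hspd1 and -0.185 to 0.00874 for Mdm2. The cause of these changes was not tested. Ratios without levels, 3 arrays per group and a fixed vehicle array 3 limit what these data can resolve.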

Other observations

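Lists not described above gave few differences beyond those of genes already named. Of 21 measured glucocorticoid-responsive genes, 12 had a difference above 0, with a median of 0.027. This list also contains Mt1, Mt2 and Cdkn1a, described above, and so held the 1 called difference, Mt2 (0.0121% of all genes). At an unadjusted p under 0.05, 1 member was higher and 3 were lower (1.85% and 2.08% of all genes). After cadmium 1 member rose and 3 fell (1.05% and 1.22% of all genes did so). Fkbp5, a chaperone of the glucocorticoid receptor, fell after cadmium (-0.23, -0.47 and -0.51). It read 0.20, -0.11 and 0.06 after acetazolamide, and had a difference of -0.45 ± 0.18 (SE). In the glutathione and oxidative stress list, Gclc, the rate-limiting enzyme of glutathione synthesis, fell after cadmium (-0.41, -0.38 and -0.25) and read 0.07, -0.19 and -0.22 after acetazolamide. Gsta4, a glutathione transferase, rose after cadmium (0.52, 0.85 and 0.36), with a difference of 0.18 ± 0.27. Atf6, a sensor of unfolded protein, fell after cadmium (-0.22, -0.42 and -0.44) and had a difference of -0.39 ± 0.13. Of 16 measured cholesterol synthesis genes, 7 were above 0, with Idi1 at -0.66 ± 0.27. The 22 Bcl2 family and caspase genes had a median difference of 0.002.

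All 9 measured muscle precursor markers lay above 0 after acetazolamide, with a median effect of 0.094, where 53.3% of all genes did; 5 of 9 lay above 0 after cadmium, and none was called after either agent. Their mean log2 ratio was -0.005, 0.239 and 0.038 in the 3 acetazolamide arrays, so it was highest in array 2, which also had the Gapdh 3′ to 5′ ratio of 1.72; the part of RNA quality was not tested. Myf5 read 0.52, 0.25 and -0.10 after acetazolamide, so its arrays overlapped oil. Six4, a transcription factor of muscle precursors, had a difference of -0.64 ± 0.27 (SE).

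Across the 8252 genes, which are not independent replicates, the fitted effects of the agents correlated with r = 0.0829 (rho = 0.0576) in 12 h mesoderm. The same correlation was 0.278 (0.255) in 3 h mesoderm, -0.16 (-0.12) in 3 h ectoderm and -0.465 (-0.498) in 12 h ectoderm. The agents shared no arrays within a setting.

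Among 1633 probe sets paired with several genes or none, 0 were called for the difference by limma (43 at an unadjusted p under 0.05), and 11 were called after cadmium.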
